A study of Mus musculus with 10 samples.

Results

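The comparison described here set mouse embryonic stem cells (ES cells) that lack isoforms a and b of Mbd3 and carry isoform c with a deletion at its N terminus against ES cells that lack a and b alone. The members were the 353 transcripts listed in both deposited tables, of 443 in the Mbd3ab KO table, 6000 in the Mbd3cΔN-ab KO table and 6090 in either. They were joined by transcript identifier, so each was already listed against wild type in both tables (all but 1 with a deposited adjusted p under 0.05 in each), and its departure from wild type is a description. The 4 mutant libraries, 2 for each line, were compared directly. The 2 wild type libraries, present in both tables, put the levels on 1 scale.

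All groups were E14, a mouse ES cell line grown on gelatin-coated plates. Mbd3ab KO had the genotype label Mbd3ab -/-, and Mbd3cΔN-ab KO had the label Mbd3cdeltaN; ab-/-. Both lines were made with CRISPR/Cas9 aimed at exon 2 of Mbd3. Loss of a and b is therefore shared by the 2 mutants, and the change in c is the labelled difference between them. The labels call the 2 libraries of a group biological replicates. The sources used here do not say if these were separate clones, so p-values may measure the spread within 1 clone. The study holds 10 libraries in all, 2 each of wild type and 4 mutants.

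Mbd3 is a core subunit of NuRD, a nuclear complex that joins nucleosome remodelling by a Chd helicase to histone deacetylation by Hdac1 and Hdac2. In ES cells NuRD tempers the transcription of many genes and is needed for timely exit from self-renewal. The Mbd3 gene gives several protein isoforms that differ at the N terminus. The title of the series names an ES cell-specific NuRD complex that works through Wdr5, a subunit of the COMPASS histone methyltransferases. The question put by this pair of lines is what the N terminus of c adds when a and b are already gone.

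Levels below are reads divided by a library's size factor and are not corrected for transcript length, so they compare libraries and not genes. The 6 libraries held a median of 140 to 273 reads per joined transcript, and total reads ran from 0.710 to 1.59 times those of the first wild type library. "First" and "second" follow the column order only. None of the 8 fixed ES cell markers (among them Pou5f1, Sox2 and Nanog) was among the joined transcripts, so the label was not checked against them. Of the markers of other cell types, only Eomes of the 6 trophectoderm markers was listed, and none of those for fibroblasts, endoderm, neuroectoderm or mesoderm was. In these bulk samples, fewer cells of a type and less RNA per cell cannot be told apart.

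Among the joined transcripts, which the join itself limits to those listed against wild type in both tables, the 2 mutants lay on the same side of wild type at all but Nufip2 and Bcam. In each mutant, 206 of the 353 transcripts had both libraries above both wild type libraries and 147 had both below. Most transcripts of the longer table are not among them: 353 of its 6000 are. The median distance from wild type was 1.46 and 1.13 (log2) in the Mbd3ab KO libraries, and 1.72 and 1.19 in the Mbd3cΔN-ab KO libraries. Compared library with library, the 4 pairs of 1 Mbd3ab KO and 1 Mbd3cΔN-ab KO library had median absolute log2 differences of 0.32, 0.43, 0.50 and 0.62. The 2 libraries within Mbd3ab KO differed by 0.35, those within Mbd3cΔN-ab KO by 0.51 and the wild type libraries by 0.14, so the gaps between the mutants ran from below to above those within them.

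Across the joined transcripts, each mutant library resembled 1 library of the other mutant more than its own replicate. The correlation of log2 levels was 0.955 between the first libraries of the mutants and 0.950 between the second. It was 0.942 between the 2 Mbd3ab KO libraries and 0.915 between the 2 Mbd3cΔN-ab KO libraries. The crossed pairs gave 0.915 and 0.888. These are descriptions across genes, which are not independent replicates, and the libraries share the choice of transcripts. The labels give no batch for any library. The first library of each mutant stood further from wild type than the second.

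**Figure D1:**
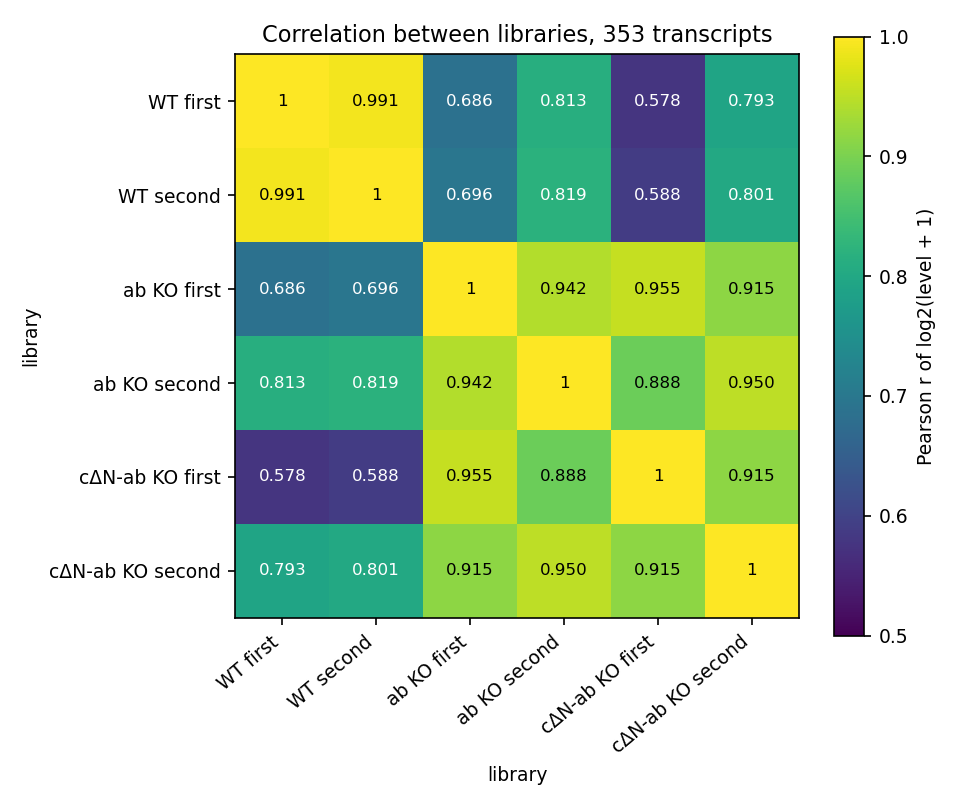
Pearson correlation of log2(level + 1) between the 6 libraries over the 353 joined transcripts, with libraries on both axes. The wild type pair stands at 0.991, and the first libraries of the mutants (0.955) and the second libraries (0.950) are closer to each other than to their replicates.

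Mbd3 itself was lower in Mbd3cΔN-ab KO than in Mbd3ab KO, and both were below wild type. Its transcript (chr10:80392541-80399479, mm10, minus strand) was at 1685 and 1614 in wild type, 558 and 704 in Mbd3ab KO and 299.6 and 292 in Mbd3cΔN-ab KO. Neither Mbd3cΔN-ab KO library overlapped Mbd3ab KO. Group means were 1649.5 ± 49.8 in wild type, 631 ± 103 in Mbd3ab KO and 296 ± 5.23 in Mbd3cΔN-ab KO (SD, n = 2). The level in Mbd3cΔN-ab KO was 2.13-fold lower, a log2 difference of -1.08 ± 0.20 (SE) with a 95% interval of -1.55 to -0.61, and limma's adjusted p was 0.0523, just short of the 0.05 threshold. The transcript carries all isoforms in 1 count, so the exon 2 changes and the level of c cannot be told apart in it. Of the 19 NuRD genes in the fixed list, Mbd3 alone was among the joined transcripts. None of the 18 Wdr5 and COMPASS genes and none of the 29 Polycomb genes was.

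The direct test separated the mutants at 4 transcripts, 1.13% of the 353. Gm1564 (now Meioc) and Nufip2 were higher in Mbd3cΔN-ab KO, and Brpf3 and Bcam were lower (0.567% in each direction), each with a limma adjusted p of 0.0309. At an unadjusted p under 0.05 there were 56 (15.9%), 19 higher (5.38%) and 37 lower (10.5%). With other tools on the recovered reads, edgeR called the same 4 and DESeq2 called 10 (2.83%). The mutant libraries did not overlap for 136 (38.5%), with Mbd3cΔN-ab KO higher for 44 (12.5%) and lower for 92 (26.1%), and overlapped for the other 217 (61.5%). The median log2 difference was -0.19, with 135 transcripts higher in Mbd3cΔN-ab KO and 218 lower. Only 24 differed by more than 2-fold, 8 higher and 16 lower.

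The promoters of these 4 genes are shown because the domain that names Mbd3, the methyl-CpG-binding domain, is a reader of CpG in its relatives. Each run is the 250 bases upstream of the transcript start, 5′ to 3′ on the gene's strand, from RefSeq (GRCm38.p6, the assembly behind mm10), with every CpG in capitals.
Brpf3 (chr17:28800876-28801125, plus strand): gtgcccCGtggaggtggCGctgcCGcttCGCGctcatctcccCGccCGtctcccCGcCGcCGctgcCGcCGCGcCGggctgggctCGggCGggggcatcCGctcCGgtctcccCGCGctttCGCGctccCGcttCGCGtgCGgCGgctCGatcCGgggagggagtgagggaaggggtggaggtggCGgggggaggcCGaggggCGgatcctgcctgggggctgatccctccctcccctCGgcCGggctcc
Bcam (chr7:19770533-19770782, minus strand): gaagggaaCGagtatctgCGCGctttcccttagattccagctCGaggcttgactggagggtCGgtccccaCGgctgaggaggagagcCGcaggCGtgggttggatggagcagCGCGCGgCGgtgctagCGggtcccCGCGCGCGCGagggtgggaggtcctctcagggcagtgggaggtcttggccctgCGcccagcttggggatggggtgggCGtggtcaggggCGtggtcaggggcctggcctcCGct
Nufip2 (chr11:77685889-77686138, plus strand): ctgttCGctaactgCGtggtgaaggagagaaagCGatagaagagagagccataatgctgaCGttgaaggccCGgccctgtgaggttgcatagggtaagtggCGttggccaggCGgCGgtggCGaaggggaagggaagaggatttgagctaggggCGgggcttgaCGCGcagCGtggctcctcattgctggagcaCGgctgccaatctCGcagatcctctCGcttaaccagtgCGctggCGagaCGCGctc
Gm1564, now Meioc (chr11:102665335-102665584, plus strand): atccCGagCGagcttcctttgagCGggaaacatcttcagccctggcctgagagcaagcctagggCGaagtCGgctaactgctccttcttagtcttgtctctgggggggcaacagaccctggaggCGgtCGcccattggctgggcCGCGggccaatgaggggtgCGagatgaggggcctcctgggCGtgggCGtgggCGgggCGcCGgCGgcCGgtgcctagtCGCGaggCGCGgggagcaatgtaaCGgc
The motif searched was CG, which reads the same on both strands. Brpf3 held 34, and 3.53% of the 32851 RefSeq promoter windows of this length held as many or more. Bcam and Gm1564 held 22 each (14.8% of windows) and Nufip2 held 20 (17.9%). Both genes that were higher and both that were lower thus have CpG-rich upstream windows, which is a description of sequence and not of methylation or binding. Such windows are not particular to the called genes. Among joined transcripts that were not called, Larp1 held 53, Lpgat1 35 and Mbd3 14.

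Brpf3, a scaffold of histone acetyltransferase complexes (chr17:28801126-28838789, plus strand), was at 1927 and 1932 in wild type, 969 and 1114 in Mbd3ab KO and 434 and 478 in Mbd3cΔN-ab KO. The 3 groups did not overlap, with wild type highest and Mbd3cΔN-ab KO lowest. It was 2.28-fold lower than in Mbd3ab KO, a log2 difference of -1.19 ± 0.18 (SE) with a 95% interval of -1.61 to -0.77. In the authors' deposited tables its log2 fold change against wild type was -0.85 ± 0.18 in Mbd3ab KO (adjusted p = 0.000297) and -2.05 ± 0.13 in Mbd3cΔN-ab KO (adjusted p = 6.41e-54).

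Gm1564, listed by RefSeq as Meioc, a germ cell protein that keeps cells in meiotic prophase (chr11:102665585-102682238, plus strand), was at 13.4 and 15.6 in wild type, 68.5 and 43.2 in Mbd3ab KO and 272 and 335 in Mbd3cΔN-ab KO. It was above wild type in every mutant library, and both Mbd3cΔN-ab KO libraries exceeded both Mbd3ab KO libraries. The level in Mbd3cΔN-ab KO was 5.43-fold higher, a log2 difference of 2.45 ± 0.39 (SE) with a 95% interval of 1.55 to 3.35. Its mean level lies under the median of the joined transcripts, outside the rule for named genes, and it is named here as 1 of the 4 called.

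Nufip2, which codes for an RNA-binding partner of the fragile X protein (chr11:77686139-77717966, plus strand), was at 2210.1 and 2136 in wild type, 1462 and 1425 in Mbd3ab KO and 3070.4 and 4954 in Mbd3cΔN-ab KO. The mutants lay on opposite sides of wild type, Mbd3ab KO below it and Mbd3cΔN-ab KO above it. Between the mutants the level was 2.78-fold higher in Mbd3cΔN-ab KO, a log2 difference of 1.43 ± 0.23 (SE) with a 95% interval of 0.90 to 1.97. In the authors' deposited tables its log2 fold change against wild type was -0.57 ± 0.16 in Mbd3ab KO (adjusted p = 0.0189) and 0.83 ± 0.26 in Mbd3cΔN-ab KO (adjusted p = 0.00591).

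Bcam, a cell surface receptor for laminin (chr7:19756138-19770532, minus strand), was at 1577 and 1535 in wild type, 2368 and 2563 in Mbd3ab KO and 1314 and 1175 in Mbd3cΔN-ab KO. It also had the mutants on opposite sides of wild type, in the other order, with Mbd3ab KO above and Mbd3cΔN-ab KO below. The level in Mbd3cΔN-ab KO was 1.98-fold lower, a log2 difference of -0.99 ± 0.17 (SE) with a 95% interval of -1.37 to -0.61. In the authors' deposited tables its log2 fold change against wild type was 0.64 ± 0.16 in Mbd3ab KO (adjusted p = 0.0069) and -0.32 ± 0.13 in Mbd3cΔN-ab KO (adjusted p = 0.0371).

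**Figure D2:**
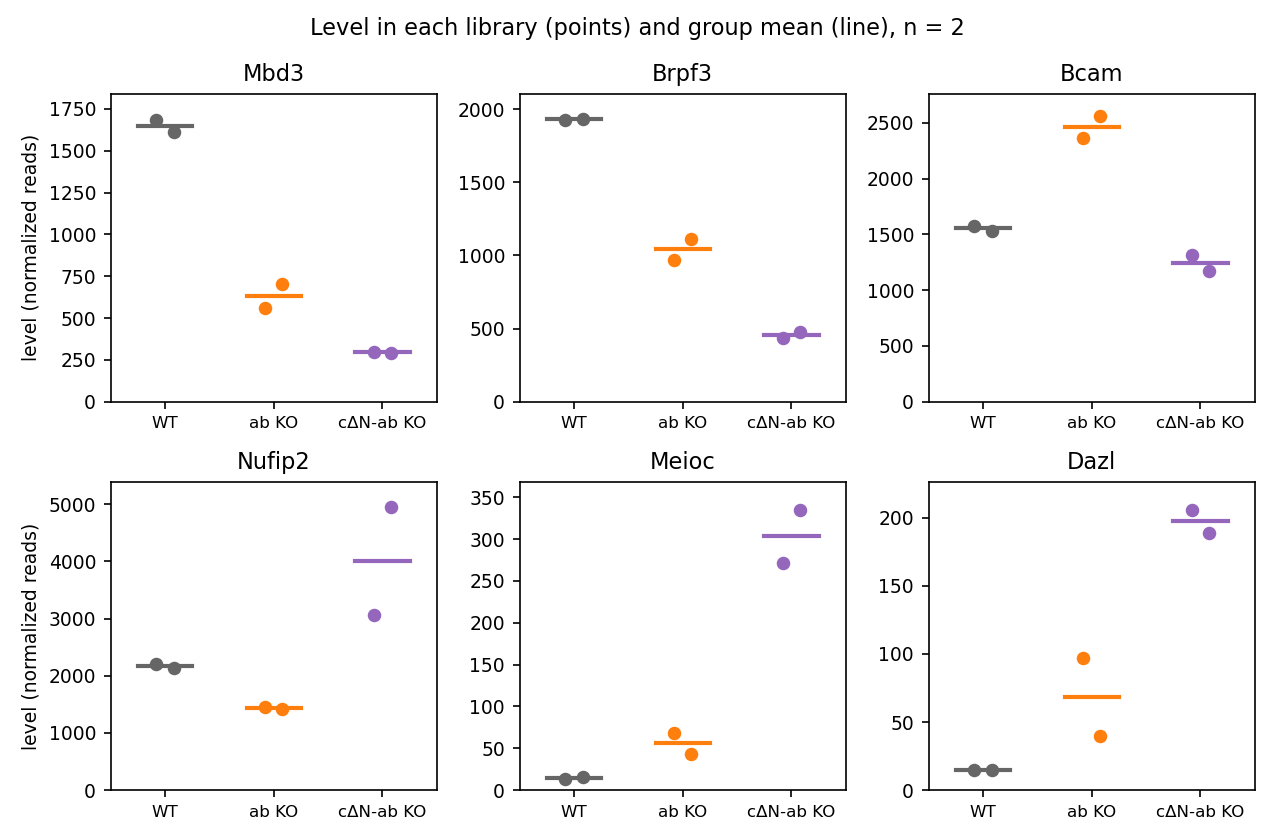
Level (reads divided by size factor, y axis from 0) in each library of wild type, Mbd3ab KO and Mbd3cΔN-ab KO, with the mean of 2 libraries as a line. The mutant libraries do not overlap in any of the 6 panels, and Nufip2 and Bcam cross wild type in opposite orders.

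The number of calls depended on which libraries entered. With the 4 mutant libraries alone limma called 0, with 25 transcripts at an unadjusted p under 0.05, and leaving out 1 library gave 0 (either wild type or either Mbd3ab KO library), 4 (the first Mbd3cΔN-ab KO library) or 13 (the second). With the slope on transcript GC content removed it also called 0. For 1 gene taken alone, an exact permutation test of 2 against 2 libraries cannot go below p = 0.333.

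**Figure D3:**
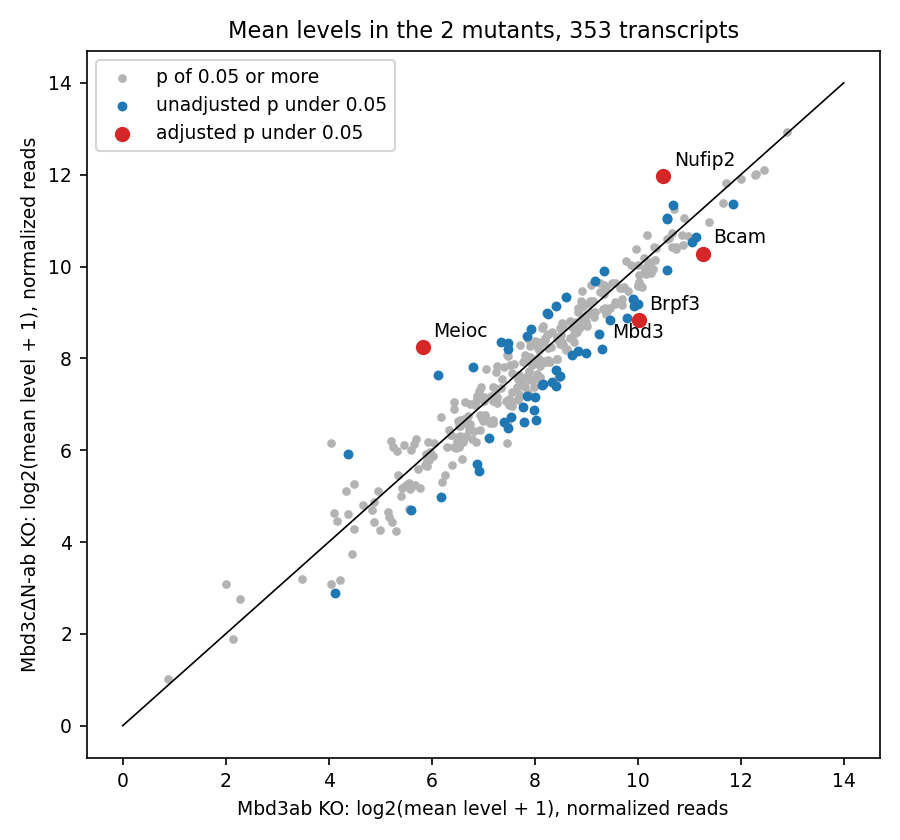
Mean level in Mbd3ab KO (x axis) and Mbd3cΔN-ab KO (y axis), both as log2(mean level + 1), for the 353 joined transcripts, with the line of equal levels. Most points follow the line, and the 4 transcripts with an adjusted p under 0.05 and Mbd3 are labelled.

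Germline genes stood on both sides of equality, Dazl higher and Tex19.1 lower in Mbd3cΔN-ab KO. No member of the fixed list passed the adjusted test, which 1.13% of all joined transcripts passed. The germ cell gene Gm1564, which the list leaves out, did pass (log2 difference 2.45, limma adjusted p = 0.0309). Of 68 genes in the list, 8 were among the joined transcripts, with a median log2 difference of -0.29 beside -0.19 over all. Dazl, which codes for a germ cell translation regulator, was at 14.7 and 14.8 in wild type, 97.3 and 39.9 in Mbd3ab KO and 206 and 189 in Mbd3cΔN-ab KO. Its libraries did not overlap (log2 difference 1.64 ± 0.47 (SE), limma adjusted p = 0.219). Tex19.1, which guards germ cells against retrotransposons, was at 547 and 475 in wild type, 213 and 309 in Mbd3ab KO and 112 and 87.2 in Mbd3cΔN-ab KO. It stood lower in both Mbd3cΔN-ab KO libraries (log2 difference -1.37 ± 0.29 (SE), limma adjusted p = 0.0959).

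Both orders and overlap occurred among the other germline members. The X-linked homeobox gene Rhox5 was at 49.5 and 44.8 in Mbd3ab KO and 20.5 and 29.6 in Mbd3cΔN-ab KO, and Nanos3, a translational repressor of germ cells, was at 14.4 and 18.3 in Mbd3ab KO and 3.61 and 9.31 in Mbd3cΔN-ab KO. Neither overlapped, with log2 differences of -0.91 and -1.32 and limma adjusted p of 0.262 and 0.289. Nanos3 rested on few reads, 27 in the Mbd3ab KO libraries together and 14 in the Mbd3cΔN-ab KO libraries together. Sohlh2, a transcription factor of germ cell differentiation, was at 1068 and 927 in Mbd3ab KO and 1639.9 and 1022 in Mbd3cΔN-ab KO, and Tdrd12, a piRNA pathway protein, was at 75.7 and 105 in Mbd3ab KO and 60.2 and 136 in Mbd3cΔN-ab KO. Both overlapped. Mov10l1, the piRNA helicase, and Rhox6 had differences of -0.37 and -0.20. In all, 5 members had lower Mbd3cΔN-ab KO libraries, 1 (Dazl) had higher and 2 overlapped, beside 26.1% lower, 12.5% higher and 61.5% overlapping over all joined transcripts. Dazl, Gm1564 and Tex19.1 also differ in base composition, with GC contents of 37%, 38.5% and 52.6%.

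Pluripotency genes were few among the joined transcripts. None passed the adjusted test, which 1.13% of all joined transcripts passed. With so few listed, this does not show that the mutants were alike at them. Of the 20 core genes only Dppa3, a maternal factor of the naive state, was listed, at 26.1 and 4.99 in Mbd3ab KO and 4.81 and 10.2 in Mbd3cΔN-ab KO, with the libraries overlapping. Of 24 naive genes 3 were listed. Nr0b1, an orphan nuclear receptor of the naive network, was at 894 and 1048 in Mbd3ab KO and 425 and 835 in Mbd3cΔN-ab KO (log2 difference -0.70, limma adjusted p = 0.331). The Hedgehog receptor Ptch1 and the Nodal antagonist Lefty1 differed by -0.20 and -0.41. Ptch1 and Nr0b1 were lower without overlap, and Lefty1 overlapped, where 26.1% and 61.5% of all joined transcripts were so.

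Of 26 formative and primed genes 3 were listed. Otx2, a homeobox factor of the formative state, was at 246 and 263 in wild type, 541 and 752 in Mbd3ab KO and 1061 and 863 in Mbd3cΔN-ab KO. Both Mbd3cΔN-ab KO libraries were higher (log2 difference 0.58 ± 0.24 (SE), limma adjusted p = 0.288). Lef1, a nuclear effector of Wnt signalling, was at 18.0 and 59.8 in Mbd3ab KO and 33.7 and 90.6 in Mbd3cΔN-ab KO, and Mycn, a growth-promoting transcription factor, was at 842 and 1199 in Mbd3ab KO and 614 and 924 in Mbd3cΔN-ab KO. Both overlapped, and neither had an unadjusted p under 0.05.

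No member of the signalling lists passed the adjusted test, which 1.13% of all joined transcripts passed. Of 56 Wnt genes 3 were listed: Ccnd1, Ccnd2 and Lef1, all overlapping, where 61.5% of all joined transcripts did so. Ccnd2, a D-type cyclin, was at 421 and 451 in wild type, 2.71 and 28.2 in Mbd3ab KO and 12.0 and 129 in Mbd3cΔN-ab KO. In each mutant the second library was above the first, the Mbd3ab KO and Mbd3cΔN-ab KO libraries overlapped, and the interval of the difference ran from -0.73 to 4.70 (log2). Of 31 genes of the LIF, Jak and Stat list 4 were listed, with a median difference of -0.48, beside -0.19 over all. Of these, 1 (Pim2) was lower without overlap and 3 overlapped, beside 26.1% and 61.5% over all joined transcripts. Jak3, a cytokine receptor kinase, was at 245 and 457 in Mbd3ab KO and 119 and 259 in Mbd3cΔN-ab KO, and the kinase Pim2 was at 260.3 and 286 in Mbd3ab KO and 197 and 186 in Mbd3cΔN-ab KO. Stat5a, a transcription factor below these receptors, was at 163 and 159 in Mbd3ab KO and 172 and 154 in Mbd3cΔN-ab KO and differed by 0.01.

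Among the ligands, the Notch ligand Dll1 was at 30.6 and 46.5 in Mbd3ab KO and 8.42 and 27.1 in Mbd3cΔN-ab KO without overlap (log2 difference -1.25 ± 0.62 (SE), limma adjusted p = 0.387). Jag1, another Notch ligand, overlapped at 200.0 and 242 in Mbd3ab KO and 166 and 214 in Mbd3cΔN-ab KO, as did the Notch coactivator Maml1. The growth factor Fgf17 was at 18.0 and 126 in Mbd3ab KO and 6.02 and 71.1 in Mbd3cΔN-ab KO, with the first library of each mutant low and the second high. Smad7, an inhibitor of TGF-beta receptors, was at 1824 and 1996 in Mbd3ab KO and 2251 and 2019 in Mbd3cΔN-ab KO. Of the 61 Nodal, BMP and TGF-beta genes 3 were listed, of 93 FGF and MAP kinase genes 4 and of 30 Notch genes 3. None of these had an unadjusted p under 0.05, where 15.9% of all joined transcripts did.

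Of 68 axon guidance and neural adhesion genes 9 were listed, 4 with lower Mbd3cΔN-ab KO libraries and 5 overlapping, where 26.1% and 61.5% of all joined transcripts were so. The median was -0.40, beside -0.19 over all. Ephb4, a receptor for ephrin ligands, was at 1554 and 1494 in wild type, 770.1 and 993 in Mbd3ab KO and 411 and 530.2 in Mbd3cΔN-ab KO (log2 difference -0.90 ± 0.22 (SE), limma adjusted p = 0.134). Slit2, a repellent ligand of Robo receptors, was at 113 and 121 in Mbd3ab KO and 27.7 and 73.7 in Mbd3cΔN-ab KO (log2 difference -1.35 ± 0.46 (SE), limma adjusted p = 0.231). Neither overlapped. The guidance receptor Nrp2 and the ligand Ntn1 overlapped, at 658 and 693 in Mbd3ab KO and 313 and 733 in Mbd3cΔN-ab KO and at 390.0 and 571 in Mbd3ab KO and 237 and 625 in Mbd3cΔN-ab KO. In both, the first Mbd3cΔN-ab KO library was the lowest of the 4. Ina, a neuronal intermediate filament protein, was at 297 and 264 in Mbd3ab KO and 191 and 152 in Mbd3cΔN-ab KO without overlap (limma adjusted p = 0.231), whereas the mesenchymal filament gene Vim overlapped at 640.4 and 962 in Mbd3ab KO and 689 and 797 in Mbd3cΔN-ab KO.

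Trophectoderm and placental genes included both orders. Of 46 genes 9 were listed, 5 with lower Mbd3cΔN-ab KO libraries, 1 with higher and 3 overlapping (26.1%, 12.5% and 61.5% over all joined transcripts), with a median of -0.20 that is near the -0.19 over all. Tfap2c, a transcription factor of trophoblast and germ cells, was at 401 and 613 in Mbd3ab KO and 162 and 395 in Mbd3cΔN-ab KO (limma adjusted p = 0.289). Its mutant libraries did not overlap. Eomes, a T-box factor of trophoblast and mesendoderm, was at 74.5 and 58.5 in wild type, 172 and 166 in Mbd3ab KO and 237 and 213 in Mbd3cΔN-ab KO, and its mutant libraries were ordered the other way (log2 difference 0.41). The keratin Krt8 overlapped at 347 and 236 in Mbd3ab KO and 488 and 203 in Mbd3cΔN-ab KO.

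Matrix and junction genes overlapped at about the share of all joined transcripts. The basement membrane collagens Col4a1 and Col4a2 were far above wild type in both mutants. Col4a1 was at 104 and 89.6 in wild type, 1531 and 797 in Mbd3ab KO and 2598 and 690.3 in Mbd3cΔN-ab KO, and its mutant libraries overlapped because the first of each mutant was high and the second low. Col4a2 had the same order, at 565 and 399 in Mbd3ab KO and 1162 and 262 in Mbd3cΔN-ab KO. Adamts7, a secreted metalloprotease, was at 290.0 and 221 in Mbd3ab KO and 176 and 107 in Mbd3cΔN-ab KO without overlap (limma adjusted p = 0.262). Of 99 matrix and integrin genes 8 were listed, 3 with lower Mbd3cΔN-ab KO libraries and 5 overlapping, near the 26.1% and 61.5% over all. The 8 listed of 62 epithelial genes gave the same split, with Cdh3 (P-cadherin) at 632 and 709 in Mbd3ab KO and 457 and 545 in Mbd3cΔN-ab KO and the plakophilin Pkp2 at 524 and 615 in Mbd3ab KO and 421 and 539.5 in Mbd3cΔN-ab KO.

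Metabolic and stress genes gave no common order. Of 47 glycolysis and hypoxia genes 6 were listed, with 3 higher, 2 lower and 1 overlapping, beside 12.5%, 26.1% and 61.5% over all joined transcripts. Slc16a3, an exporter of lactate, was at 1879 and 2367 in Mbd3ab KO and 1515 and 1430.5 in Mbd3cΔN-ab KO, and the mTOR inhibitor Ddit4 was at 701 and 711 in Mbd3ab KO and 498 and 412 in Mbd3cΔN-ab KO. Both were lower without overlap (limma adjusted p = 0.231 for each). Egln3, an oxygen-sensing prolyl hydroxylase, was at 254 and 422 in Mbd3ab KO and 469 and 664 in Mbd3cΔN-ab KO and was higher without overlap (adjusted p = 0.262). Of 37 p53 targets 4 were listed. The apoptosis gene Pmaip1 was at 209 and 116 in Mbd3ab KO and 363 and 285 in Mbd3cΔN-ab KO and Ei24 at 1661 and 1359 in Mbd3ab KO and 2268 and 1970.0 in Mbd3cΔN-ab KO, both higher without overlap (adjusted p = 0.231 and 0.254), while the antiproliferative gene Btg2 and the stress sensor Sesn1 overlapped.

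Interferon and innate immune genes were the list with the lowest median among those with 3 or more members (-0.84), though only 3 of 55 were listed. Ifitm3, an antiviral membrane protein, was at 776 and 933 in wild type, 413 and 307 in Mbd3ab KO and 184 and 209 in Mbd3cΔN-ab KO (limma adjusted p = 0.219). The NF-kB subunit Relb was at 123 and 151 in Mbd3ab KO and 74.6 and 77.1 in Mbd3cΔN-ab KO (adjusted p = 0.231). Ifitm1 was at 2155 and 1897 in Mbd3ab KO and 1412 and 1839 in Mbd3cΔN-ab KO (adjusted p = 0.445). In all of these the Mbd3cΔN-ab KO libraries were lower without overlap, beside 26.1% over all joined transcripts. The Ifitm genes are close copies, and how reads were split between them is uncertain. The list is not complete. Outside it, the immune genes Xaf1, Nlrp3, Parp14 and Dtx3l were higher without overlap (log2 differences 0.76, 0.98, 0.47 and 0.36), none past the adjusted threshold. Of all joined transcripts, 12.5% were higher without overlap and 1.13% passed that threshold.

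Of 4 imprinted genes listed 3 overlapped, and of 9 solute carriers 7, beside 61.5% of all joined transcripts. Peg10 was at 3854 and 4385 in Mbd3ab KO and 4198 and 3432 in Mbd3cΔN-ab KO, and Peg3 at 251 and 312 in Mbd3ab KO and 276 and 528 in Mbd3cΔN-ab KO. Both overlapped. The drug efflux pumps Abcb1a and Abcb1b, which are near copies, overlapped at 427 and 173 in Mbd3ab KO and 433 and 296 in Mbd3cΔN-ab KO and at 711 and 247 in Mbd3ab KO and 848 and 376 in Mbd3cΔN-ab KO, with the first library of each mutant higher. Slc5a3, the inositol importer, was at 268 and 214 in Mbd3ab KO and 444 and 352 in Mbd3cΔN-ab KO (limma adjusted p = 0.256), and its log2 difference turned from 0.72 to -0.03 once the slope on GC content was removed. Slc28a1, a nucleoside importer, was at 100 and 252 in Mbd3ab KO and 31.3 and 109 in Mbd3cΔN-ab KO with a log2 difference of -1.42, the lowest of the 353, and still overlapped. Of 6 zinc finger genes, Zfp934 was at 19.8 and 19.9 in Mbd3ab KO and 44.5 and 74.5 in Mbd3cΔN-ab KO and Zfp428 at 370.2 and 473 in Mbd3ab KO and 238 and 297 in Mbd3cΔN-ab KO. The Mbd3cΔN-ab KO libraries were higher for Zfp934 and Zfp951 (log2 differences 1.49 and 1.07) and lower for Zfp428 and Zfp862-ps (-0.65 and -0.79). The other 2 overlapped, and none of the 6 passed the adjusted threshold. Over all joined transcripts 12.5% were higher, 26.1% lower and 61.5% overlapping, and 1.13% passed the adjusted threshold. Zfp428 turned from -0.65 to 0.07 with the GC slope removed.

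**Figure D4:**
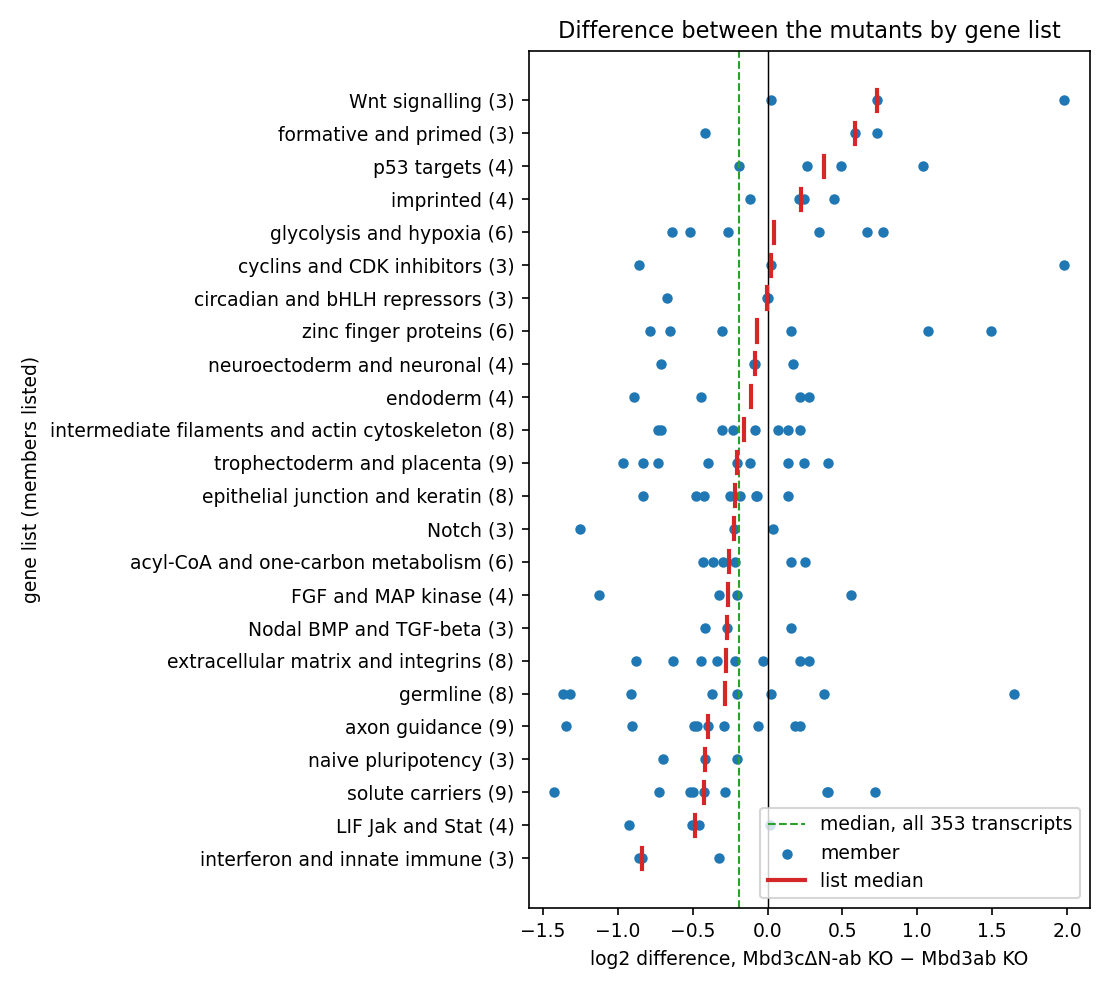
Log2 difference (Mbd3cΔN-ab KO minus Mbd3ab KO, x axis) of each member of the gene lists with 3 or more joined members (y axis, number listed in brackets), with list medians in red and the median of all 353 transcripts (-0.19) dashed. Members of most lists fall on both sides of 0. No member shown passed the adjusted test, which 1.13% of all 353 transcripts passed.

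At some transcripts the 2 mutants differed little, within stated bounds. The 5 with the smallest differences among those above the median level were Cyb5r3, Hspb1, Bhlhe40, Pard3 and Ccnd1. Bhlhe40, a circadian repressor, was at 1122 and 1113 in wild type, 323 and 404 in Mbd3ab KO and 302 and 429 in Mbd3cΔN-ab KO, with a 95% interval of the log2 difference of -0.57 to 0.56. Hspb1, a small heat shock protein, was at 4745 and 4683 in wild type, 8055 and 7190.0 in Mbd3ab KO and 9296 and 6207 in Mbd3cΔN-ab KO (interval -0.47 to 0.46). Ccnd1, the cyclin D1 gene, was at 1671 and 1752 in wild type, 941 and 1111 in Mbd3ab KO and 906 and 1191 in Mbd3cΔN-ab KO (interval -0.45 to 0.49). The cell polarity gene Pard3 and the reductase gene Cyb5r3 had intervals of -0.50 to 0.47 and -0.42 to 0.42. All 5 intervals left out a 2-fold difference in either direction. These 5 were chosen for their small differences, so intervals centred near 0 follow from the choice. The fit pooled the spread with that of the closer wild type libraries, so the intervals may be too narrow. Across the joined transcripts 127 intervals (36.0%) left out a 2-fold difference, and the median half-width was 0.75. For the remainder a 2-fold difference was inside the interval, so a p above the threshold does not show that the mutants were alike there.

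GC content of the transcript moved with the difference between the mutants. Transcripts rich in A and T tended to be higher in Mbd3cΔN-ab KO and those rich in G and C lower (Spearman rho = -0.58, Pearson r = -0.60, a description across 353 transcripts that share libraries). In the class of lowest GC, 36.7% to 48.9%, the median log2 difference was 0.35, and 22 transcripts were higher without overlap against 4 lower. In the class of highest GC, 57.0% to 64.4%, the median was -0.43, with none higher and 35 lower. Classes between these had medians of 0.01, -0.18 and -0.36. All 4 pairs of libraries, 1 from each mutant, had the same sign, with rho from -0.63 to -0.32. Within a group rho was -0.20 (Mbd3ab KO), 0.04 (Mbd3cΔN-ab KO) and 0.16 (wild type).

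The called transcripts lay at both ends of this range. Gm1564 and Nufip2, the higher pair, had GC contents of 38.5% and 39.2%, and Brpf3 and Bcam, the lower pair, had 55.5% and 60.8%. Mbd3 had 62.9%. When the linear slope on GC was removed from each library, an alternative chosen after seeing the data, limma called 0 (33 at an unadjusted p under 0.05), and the log2 differences became -1.04 for Brpf3, 1.50 for Gm1564, 0.54 for Nufip2, -0.50 for Bcam and -0.46 for Mbd3. The direction of each was kept, and their adjusted p ran from 0.133 to 0.508. The part of GC content in these differences was not otherwise tested.

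**Figure D5:**
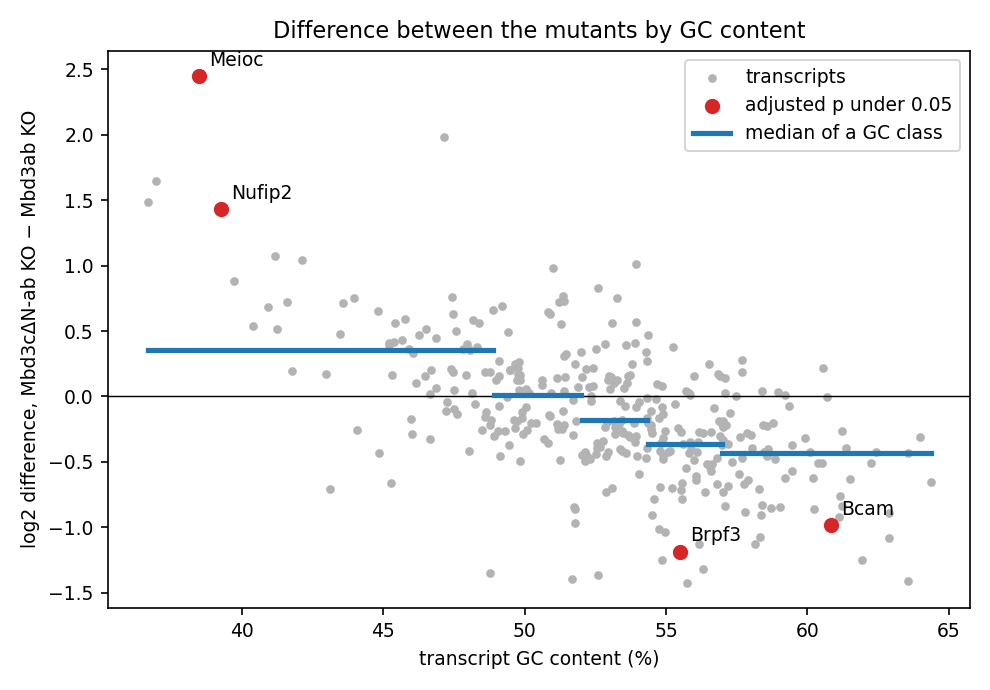
Log2 difference (Mbd3cΔN-ab KO minus Mbd3ab KO, y axis) against transcript GC content in percent (x axis), 1 point per transcript, with the median of each of 5 GC classes as a blue line. The class medians go from 0.35 at the lowest GC to -0.43 at the highest, and the 4 called transcripts are labelled.

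The transcripts of the Mbd3ab KO table that were not listed for Mbd3cΔN-ab KO numbered 90, 66 above and 24 below wild type. They were not analysed here. Of these, 10 share a symbol with a different transcript in the other table, and adding them changed no call.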

How the data were processed

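RNA sequencing of wild type, Mbd3ab KO and Mbd3cΔN-ab KO E14 cells (2 libraries each) was analysed. Per the labels' protocols ribosomal RNA was removed with products of NEB and Clontech, with no word on which library received which, and libraries were strand-specific. The submitters' processing notes name TopHat2, HOMER, DESeq2 and mm10. Exon reads were counted by strand with HOMER, per the file headers. The sources used here give no tool versions for this. For listed genes only, the authors deposited a normalized signal per library, scaled to equal totals within a table, a log2 fold change with its SE, a p-value with its adjusted value, and a score (the Wald statistic, not used).

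Reads were recovered from the column steps (whole within 0.02 reads for all values). In the short Mbd3ab KO table low values were too few to establish this from the table alone, but its wild type reads equalled those of the other table for 353 of 353 transcripts. Levels are reads divided by size factors recovered from the deposited mean, and the Mbd3ab KO table was multiplied by 1.10, the geometric mean ratio of the wild type columns. The main test was limma 3.58.1 (trend) on log2(level + 1), 3 groups of 2 libraries, Benjamini-Hochberg adjusted over 353 transcripts, in R 4.3.3. Fold changes are ratios of group means. The tables hold selected transcripts, so the spread was estimated from these alone and the p-values may be too small. The fit also pooled the spread over the 3 groups. The wild type libraries differed less (median absolute log2 difference 0.14) than those of Mbd3ab KO (0.35) and Mbd3cΔN-ab KO (0.51), which may also make the p-values too small. edgeR 4.0.16 and DESeq2 1.42.0 on recovered reads were alternatives, as were other pseudocounts (0.5, 5), scalings, filters and joins, and leaving out each library. The fit was also run on simulated counts, with most transcripts set to differ between the mutants. These had the same trend of spread in all groups and no slope on GC content, unlike the data, so the run is not used as support for the calls.

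GC content came from the GENCODE transcript linked to the RefSeq identifier or, where none was, the longest of the same symbol (353 of 353 matched). In the latter case it may be that of another isoform. Promoters came from RefSeq (277 of 353 matched, 78.5%). This was under the 80% needed for a summary over the set, so CpG is given for single genes only. Members, lists and tests were chosen with earlier results of these data known. The rule for named genes took Mbd3, called transcripts without overlap at or above the median level (up to 10 each way), the 5 smallest differences and up to 4 members of each list, highest mean level first. Gm1564, Dazl, Rhox6, Mov10l1, Nanos3, Krt8, Eomes, Egln3, Adamts7, Slit2 and other list members outside these were named after their values were seen.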

Additional observations from a re-analysis of the deposited data

Results flagged for a closer look

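The test of the difference between the mutants passed its threshold at 4 transcripts, which are listed for a closer look. The log2 difference (Mbd3cΔN-ab KO minus Mbd3ab KO) was 2.45 for Gm1564 and 1.43 for Nufip2, both higher in 2 of 2 Mbd3cΔN-ab KO libraries than in either Mbd3ab KO library. It was -1.19 for Brpf3 and -0.99 for Bcam, both lower in 2 of 2. The limma adjusted p was 0.0309 for each. Groups of 2 libraries were too small for a test of single outlying samples.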

How the results depend on the processing

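The 4 calls (2 higher, 2 lower) became 0, in both directions, with TMM factors over the joined transcripts (43 at an unadjusted p under 0.05), with the 4 mutant libraries only (25), with GC slopes removed (33, chosen after seeing the data) and at an adjusted p under 0.01 (all limma). edgeR kept the same 4. DESeq2 called 10, 7 of them lower, adding Mbd3, Tex19.1, Rdm1, Atp10a and Ephb4 (lower) and Calu (higher). Requiring 2-fold left 1 lower. Leaving out each library in turn gave 0 to 13 calls, 0 to 2 higher and 0 to 11 lower, with the lone library assumed to vary like the other groups. Without the second Mbd3cΔN-ab KO library there were 13. Among settings that kept 2 libraries in each group, Mbd3 passed the threshold with equal totals (-1.09, limma adjusted p = 0.0415) and in DESeq2 (-1.09, adjusted p = 0.000603). The log2 difference of Mbd3 ran from -1.25 to -0.91 as libraries were left out. The range of its adjusted p over all alternatives was 0.000603 to 0.523. The median log2 difference ran from -0.26 to 0.015, the upper value without the second Mbd3cΔN-ab KO library, and the rank correlation with GC from -0.58 to -0.40. That correlation was 0.056 once the GC slopes were removed, by construction. For the other changes the cause was not tested. Pseudocounts, the filter on low levels, either wild type library as the scale, the join by symbol and the deposited threshold kept the same 4 calls. No setting turned the direction of a called transcript. Of 149 named genes, 57 changed sign in at least 1 alternative, 54 of them when a library was left out and 20 with GC slopes removed. Of those with an unadjusted p under 0.05, 2 did so (Slc5a3 and Zfp428). No paired analysis was possible because the columns carry no replicate numbers. Depth limits low transcripts: Ccnd2 had 3 reads in the first Mbd3ab KO library, and Nanos3 had 14 in the Mbd3cΔN-ab KO libraries together.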
